A study of Homo sapiens with 9 samples.

Results

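Day 11 neural progenitor cells (NPC) exposed to bafilomycin A1 (BafA1) were compared with the undifferentiated human embryonic stem cells (hESC) from which they were derived, and genes were sorted by whether the treated progenitors kept, reached again, exceeded or fell below the stem cell level. The comparison took 3 libraries of treated NPC and 3 of hESC, 6 of the 9 RNA sequencing libraries of the study, chosen by their column names. The remaining 3 libraries, from NPC without treatment (untreated NPC, labelled control NPC in the plots, where treated NPC are labelled BafA1 NPC), were set beside many of the values. All libraries came from 1 established hESC line, H9. The labels number the libraries as biological replicates without naming separate cultures, so p-values measure the spread between these libraries, part of which may be technical.

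The hESC were untreated. Per the labels' protocols, the cells of both progenitor groups were grown on Matrigel to confluence and then given LDN193189 at 200 nM and SB431542 at 10 µM, inhibitors of BMP and of TGF-beta type receptors. Purmorphamine at 2 µM, an agonist of Hedgehog signalling, and CHIR99021 at 3 µM, an inhibitor of the kinase GSK3 that turns on WNT signalling, were added for set periods, and N2 medium replaced the first medium in steps from day 5. BafA1 was used at 10 nM for 6 h. The protocols list 4 windows of days for the exposure between day 4 and day 10, and the window of the sequenced cells was not given in the sources used here.

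BafA1 binds the V-ATPase, the proton pump of lysosomes and endosomes, and stops these compartments from becoming acidic, so that proteins, LDL cholesterol and transferrin iron delivered to them are processed poorly and autophagosomes are not cleared. Primed hESC are held in their state by POU5F1, NANOG and SOX2, divide rapidly, rely on glycolysis, and express the RNA-binding protein LIN28A. Midbrain floor plate progenitors, which the protocol aims at, are marked by LMX1A, FOXA2 and OTX2 and shut off the pluripotency genes.

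Promoter sequences of 4 genes are shown because these genes stand for 3 of the responses described below: AARS1 reached the hESC level again, LDHA and the metallothioneins MT1X and MT2A rose above it. Each sequence is the 250 bases before a RefSeq start (build GRCh38.p14), written 5′ to 3′ on the gene's strand in lower case, with motif matches on either strand in capitals. The motif of AARS1 is TGATGNAA, the composite site of ATF4 with a C/EBP partner, which matched once, on the opposite strand. That of LDHA is the core of the hypoxia response element, ACGTG or GCGTG, with 5 matches, some of which overlap as palindromes. LDHA has 2 RefSeq promoter windows, and the window shown was picked by its number of matches, whereas AARS1, MT1X and MT2A have 1 window each. That of MT1X and MT2A is the core of the metal response element, TGCACNC or TGCGCNC, with 4 and 7 matches.
AARS1, chr16:70289507-70289756, minus strand: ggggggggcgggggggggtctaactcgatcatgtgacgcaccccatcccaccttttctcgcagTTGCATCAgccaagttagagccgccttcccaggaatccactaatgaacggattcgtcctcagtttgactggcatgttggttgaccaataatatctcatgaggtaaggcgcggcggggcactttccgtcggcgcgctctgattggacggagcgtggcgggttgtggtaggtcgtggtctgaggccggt
LDHA, chr11:18394313-18394562, plus strand: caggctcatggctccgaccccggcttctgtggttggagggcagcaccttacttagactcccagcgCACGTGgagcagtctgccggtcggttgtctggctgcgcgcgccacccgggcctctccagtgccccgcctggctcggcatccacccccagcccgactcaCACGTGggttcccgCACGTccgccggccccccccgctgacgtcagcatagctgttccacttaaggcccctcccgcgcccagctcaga
MT1X, chr16:56682220-56682469, plus strand: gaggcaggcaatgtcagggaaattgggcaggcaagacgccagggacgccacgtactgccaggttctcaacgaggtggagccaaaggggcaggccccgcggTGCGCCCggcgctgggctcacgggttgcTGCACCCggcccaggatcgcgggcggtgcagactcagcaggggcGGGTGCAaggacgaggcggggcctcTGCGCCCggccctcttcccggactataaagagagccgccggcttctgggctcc
MT2A, chr16:56608334-56608583, plus strand: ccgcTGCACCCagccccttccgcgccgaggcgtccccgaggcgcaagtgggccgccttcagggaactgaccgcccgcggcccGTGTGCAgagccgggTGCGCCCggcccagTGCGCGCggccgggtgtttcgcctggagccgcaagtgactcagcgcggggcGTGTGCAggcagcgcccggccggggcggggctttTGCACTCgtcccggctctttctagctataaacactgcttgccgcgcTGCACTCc
Matches are descriptions of the letters and not evidence of binding. In windows of this length, the hypoxia core was present in 43.2% of all 35116 RefSeq promoter windows, in 52.2% of the windows of genes tested, in 54.2% of 48 windows of the glycolysis genes and in 88.5% of 26 windows of the other hypoxia targets. The metal core was present in 24.8% of all windows, in 30.6% of those of genes tested and in 4 of 7 windows of the metallothionein and zinc genes. The ATF4 composite was present in 3.14% of all windows, in 1.88% of those of genes tested, in 3 of 33 windows of ATF4 and unfolded protein response genes and in 3 of 21 windows of the aminoacyl-tRNA synthetases.

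The libraries held 43124679 to 69703791 counts, so 3 counts, the floor used for genes at 0, were 0.0461 to 0.0731 CPM (counts scaled to the TMM-corrected library size, the unit of all levels below). On the first principal component, with 79.2% of the variance, hESC lay at -175.4 to -173.4, untreated NPC at 78.3 to 88.3 and treated NPC at 88.8 to 94.9. The second component, with 9.87%, held untreated NPC at -67.6 to -38.6, hESC at -4.7 to 8 and treated NPC at 41 to 60.6. Mitochondrially encoded transcripts took 4.18 ± 0.432% of counts in hESC, 3.04 ± 0.115% in untreated NPC and 2.09 ± 0.112% in treated NPC (mean ± SD, n = 3). The rank correlation across genes of a library's deviation from the mean with gene GC content was 0.105 to 0.187 in hESC, -0.338 to -0.139 in untreated NPC and -0.03 to 0.048 in treated NPC, so libraries of the groups differed in composition as well. The part of these properties in the results was not tested, apart from the refit with the GC trend removed. These are bulk RNA samples, in which fewer cells of a type and less RNA per cell cannot be told apart.

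Of 20685 genes tested, 7353 (35.5%) were higher and 7204 (34.8%) lower in treated NPC than in hESC at an adjusted p under 0.05 (edgeR quasi-likelihood test, Benjamini-Hochberg over all genes). Untreated NPC, which share the same hESC libraries, had 6816 genes (33%) higher and 6529 (31.6%) lower than hESC, and treated NPC had 4309 (20.8%) higher and 4277 (20.7%) lower than untreated NPC. The median log2 change of all genes against hESC was 0.023 in treated NPC and 0.034 in untreated NPC. The shares of all genes called are the background for the counts of each gene list or family below. In what follows "rose", "fell", "higher" and "lower" mark calls at that threshold, changes are log2 fold changes ± SE against hESC, and levels are given for libraries 1, 2 and 3 of a group or as mean ± SD of n = 3.

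A gene counted as being at the hESC level where the whole 95% interval of its change lay within 1.5-fold of hESC. Of 16763 genes with at least 1 CPM in a group, 3963 (23.6%) were at that level in treated NPC and 4886 (29.1%) in untreated NPC. Genes at the level in both progenitor groups are called kept, and there were 2589 (15.4%). Genes at least 2-fold off hESC in untreated NPC, but different from that and within 1.5-fold of hESC in treated NPC, are called reached again. These were 82 (0.489%), 51 of them low and 31 of them high in untreated NPC. A further 1066 genes (6.36%), called part of the way, were nearer to hESC in treated than in untreated NPC, still on the same side of hESC. The class names compare end points, since all progenitor libraries are from day 11. A gene that left the hESC level and returned cannot be told from one that never left it. In 114 genes (0.68%) treated NPC exceeded hESC by at least 2-fold where untreated NPC were at or below it, and in 125 (0.746%) they fell below by at least 2-fold where untreated NPC were at or above it. These classes come from contrasts that share libraries, carry no test of their own, and depend on the 1.5-fold width. Their percentages are the background for class counts within the lists below.

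**Figure D1:**
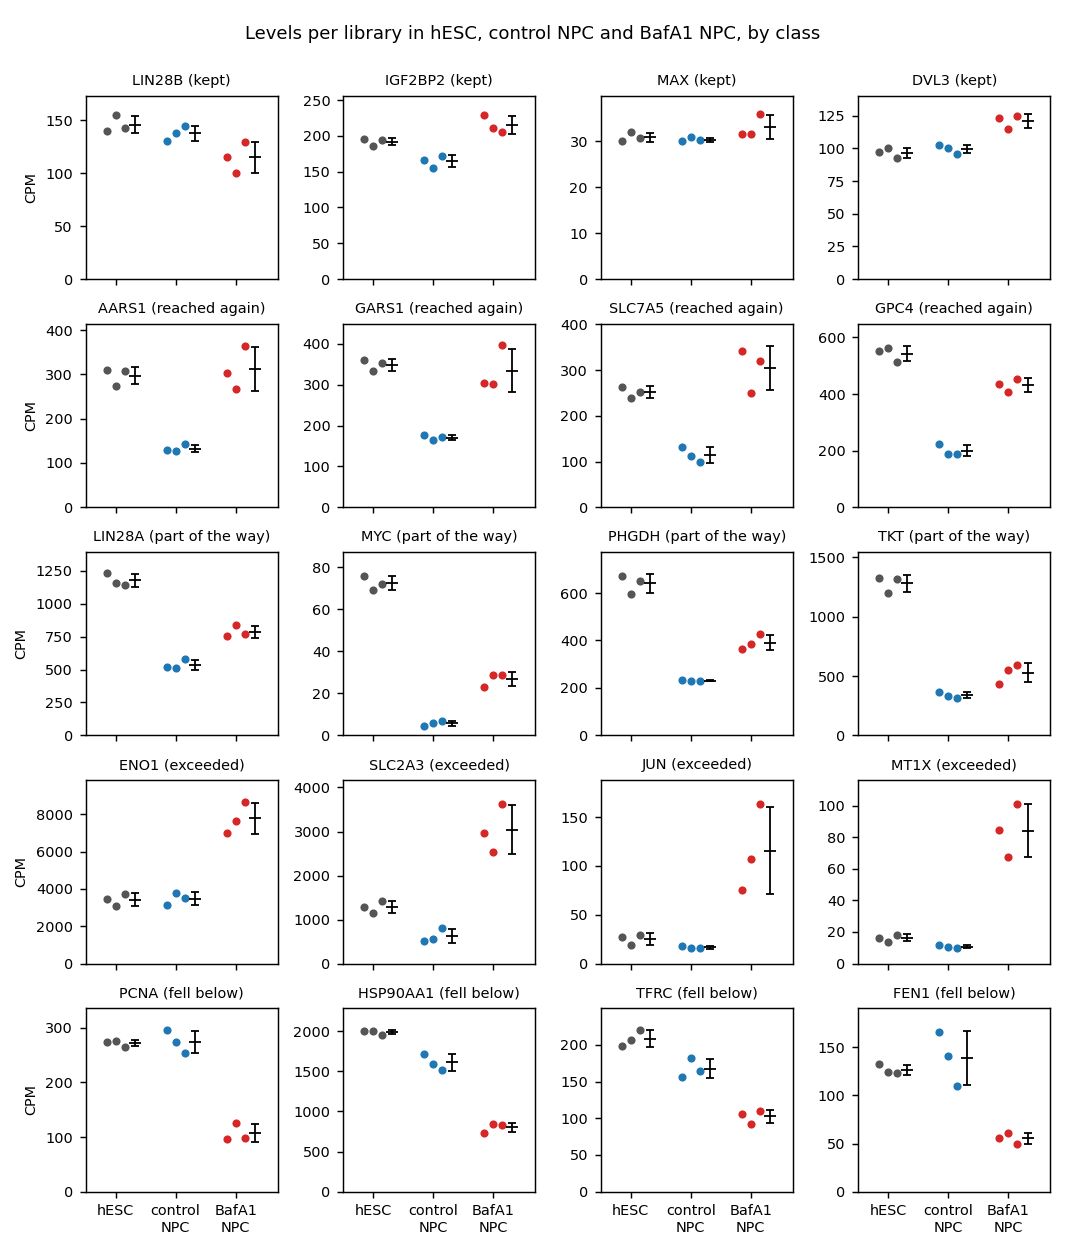
Levels (CPM, linear axis from 0) in each library of hESC, untreated NPC and treated NPC for 4 genes of each class; dots are libraries, bars mean ± SD of 3 libraries. In treated NPC, AARS1, GARS1 and SLC7A5 lie above untreated NPC and in or near the hESC range. ENO1, SLC2A3, JUN and MT1X lie above both other groups there, and PCNA, HSP90AA1, TFRC and FEN1 below both.

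Most of the pluripotency programme was far below the hESC level in treated NPC. Of 27 primed pluripotency genes tested, 24 fell, beside 34.8% of all genes, 2 rose, and none was within 1.5-fold of hESC. POU5F1 (chr6 in GRCh38), the factor without which the pluripotent state is lost, stood at 2397, 2130.0 and 2326 in hESC, at 0, 0 and 0 in untreated NPC and at 0.0182, 0 and 0 in treated NPC. NANOG, its partner, stood at 96.1, 95.7 and 95.7 in hESC, 0.462, 0.101 and 0.123 in untreated NPC and 0, 0.0975 and 0.171 in treated NPC. Both were at or near 0 in every progenitor library, so the labels of the groups match the markers, and reads of POU5F1 may be shared with its pseudogene copies. TDGF1, a co-receptor for NODAL, had a mean of 462 in hESC and no count in either progenitor group, which makes it at least 7950.4-fold lower against the floor of 3 counts per library. The kinase gene LCK was at least 1264-fold lower, the transcription factor gene FOXD3 at least 700.5-fold, and the long noncoding RNAs LNCPRESS2 and LNCPRESS1 at least 1012-fold and 366-fold. SIX6, an eye field factor, and C13orf42 were at least 854-fold and 435-fold lower against that floor. With POU5F1 and TDGF1 these were the largest fitted falls among genes with at least 5 CPM in hESC.

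Of the primed genes, 9 had gone part of the way from the untreated NPC level toward hESC, at levels far from it. PODXL, a surface sialoglycoprotein of hESC, was 870.1 ± 34.4 in hESC, 121 ± 23.2 in untreated NPC and 237 ± 48.6 in treated NPC. The long noncoding RNA ESRG was 996 ± 25.3, 0.184 ± 0.0319 and 0.635 ± 0.140 in the same order, a change of -10.59 ± 0.15 against hESC. The median change of the 27 genes was -7.439 in treated NPC and -7.311 in untreated NPC, or -5.532 and -6.851 with the 6 and 7 genes at 0 counts placed at their bound. The list's summed level was 8319 to 8715 in hESC, 707.8 to 742.5 in untreated NPC and 866.4 to 909.9 in treated NPC.

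SOX2 is shared by stem cells and neural progenitors and was the exception among the core factors. It stood at 218, 220.2 and 209 in hESC, 249.96, 291 and 277 in untreated NPC and 323, 351 and 358 in treated NPC. The 3 groups did not overlap, and treated NPC rose above hESC by 0.67 ± 0.087 (edgeR adjusted p = 2.3e-05). Of 8 genes of the naive state tested, 5 fell and 2 rose (6 and 1 in untreated NPC), and TFCP2L1 and ESRRB, factors of that state, changed by -7.21 ± 0.69 and -4.06 ± 0.30. KLF4, an inducer of pluripotency in reprogramming, stood at 2.57, 2.32 and 3.02 in hESC, 1.17, 1.37 and 1.20 in untreated NPC and 2.42, 3.14 and 3.93 in treated NPC. The treated libraries lay above untreated NPC and overlapped hESC, with a change against hESC of 0.27 ± 0.21 that was not called.

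Among 12 oncofetal genes, 4 rose and 5 fell, beside 35.5% and 34.8% of all genes, and untreated NPC had 5 higher and 5 lower. Of the 12, 3 were kept, beside 15.4% of genes with at least 1 CPM. LIN28A, which blocks maturation of let-7 microRNAs, went part of the way, with 1230.1, 1154 and 1144 in hESC, 518, 513 and 579.9 in untreated NPC and 756, 835 and 767 in treated NPC. Every treated library lay between the other groups, -0.58 ± 0.092 from hESC (edgeR adjusted p = 1.2e-04). Its paralogue LIN28B was kept within 1.5-fold, at 140.2, 155 and 143 in hESC and 116, 99.96 and 129.6 in treated NPC, although it was called lower (-0.34 ± 0.099). LIN28B held the kept class in 9 of 16 alternatives. The mRNA-binding proteins IGF2BP1 and IGF2BP2 were also kept, at -0.11 ± 0.12 (called lower without BafA1 replicate 1, -0.262, edgeR adjusted p = 0.03145) and 0.16 ± 0.08, whereas IGF2BP3 fell by 1.17 ± 0.091. The chromatin protein HMGA1 went from 2458 ± 71.4 in hESC to 915 ± 29.3 in untreated NPC and 1080.5 ± 47.2 in treated NPC. The imprinted genes H19 and IGF2 moved the other way: H19 stood at 5.73, 4.40 and 4.14 in hESC, 10.7, 9.97 and 13.7 in untreated NPC and 92.5, 71.5 and 85.2 in treated NPC, and IGF2 changed by 5.64 ± 0.22. For H19, no library of one group overlapped another group.

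Of 9 genes for DNA methylation and its removal, 6 fell and 2 rose, against 5 and 3 in untreated NPC. DNMT3B, the de novo methyltransferase typical of hESC, was 915 ± 65.0 in hESC, 37.4 ± 4.87 in untreated NPC and 24.2 ± 4.29 in treated NPC, -5.24 ± 0.16 from hESC. The demethylating enzyme TET1 stood at 118, 116 and 128 in hESC, 52.8, 65.6 and 75.2 in untreated NPC and 188, 108 and 150.4 in treated NPC. Treated libraries were above untreated NPC, and the change against hESC, 0.30 ± 0.17, was not called. Without BafA1 replicate 2 it was called higher (0.4871, edgeR adjusted p = 0.01025). TET2 rose by 2.12 ± 0.16, beside 2.22 ± 0.16 in untreated NPC.

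Epithelial genes, which hESC express as an epithelium and neural cells lose, fell in 15 of 18 cases, with 2 higher, and untreated NPC had 16 lower and 1 higher. CDH1, E-cadherin, was 358, 324 and 357 in hESC, 0.270, 0.338 and 0.246 in untreated NPC and 1.37, 0.731 and 0.947 in treated NPC. Treated libraries were above untreated NPC in every case but remained -8.39 ± 0.17 from hESC. Keratin 19 was the member that reached the stem cell level again: KRT19 stood at 153, 126 and 141 in hESC, 48.3, 39.6 and 58.1 in untreated NPC and 126, 111 and 135 in treated NPC, a change of -0.17 ± 0.13 with a 95% interval of -0.46 to 0.12. Its treated libraries overlapped hESC and lay above every untreated library. CLDN4, a tight junction claudin, went from 13.0 to 1.03 and 3.67, and 8 of the 18 genes in all had gone part of the way. KRT8, another keratin, rose by 0.36 ± 0.15 and the desmosome gene DSP by 0.33 ± 0.12, calls that did not hold without BafA1 replicate 1 (0.1837 and 0.1984, edgeR adjusted p = 0.2164 and 0.1359), without any 1 hESC library, with library size alone or with limma on FPKM. The KRT8 call was also lost with 6 libraries only, with no filter and without untreated NPC replicate 3 (edgeR adjusted p = 0.05142, 0.05563 and 0.05386).

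**Figure D2:**
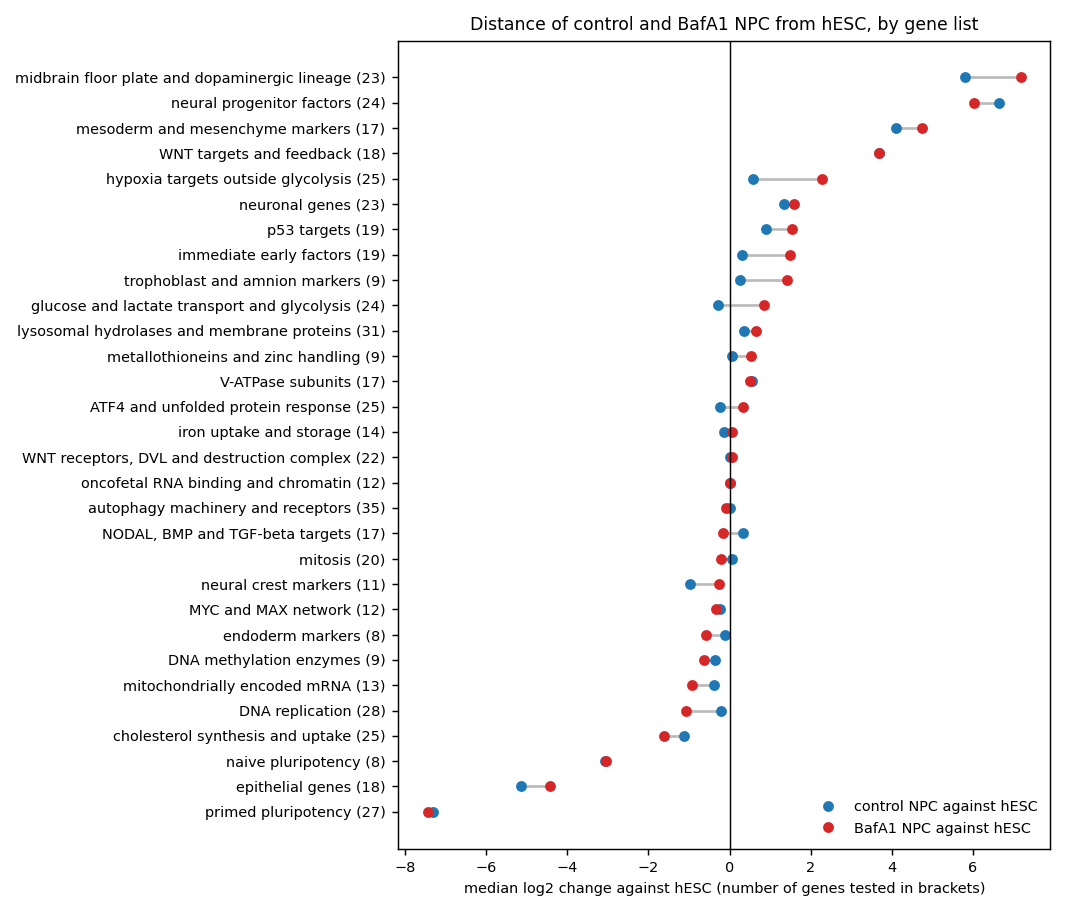
Median log2 change against hESC over the genes of each list (x axis) for untreated NPC (blue) and treated NPC (red); numbers in brackets are genes tested, and genes with 0 counts in a group enter with their fitted value. Glycolysis genes lie at -0.294 in untreated NPC and 0.846 in treated NPC, hypoxia targets at 0.579 and 2.279, and DNA replication genes at -0.2 and -1.069, while the 2 points for primed pluripotency nearly coincide.

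Treated progenitors passed the stem cell level in most genes of glycolysis. Of 24 genes for glucose and lactate transport and glycolysis, 20 rose and 2 fell against hESC, beside 35.5% and 34.8% of all genes. The exceeded class held 7 of them, beside 0.68% of genes with at least 1 CPM. In untreated NPC 2 of the 24 genes were higher and 11 lower. The median change was 0.846 in treated NPC and -0.294 in untreated NPC, beside 0.023 and 0.034 over all genes. The summed level was 20950 to 25220 in hESC, 17390 to 19960 in untreated NPC and 37850 to 48300 in treated NPC.

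The neuronal-type glucose transporter SLC2A3 (chr12:7919230-7936187 in GRCh38) stood at 1286, 1158 and 1429 in hESC, 514, 553 and 807 in untreated NPC and 2968, 2534 and 3632 in treated NPC. Every untreated library was below and every treated library above the hESC range, with a change of 1.24 ± 0.18 (edgeR adjusted p = 6.0e-05). The other main transporter, SLC2A1, stood at 1243, 1000.3 and 1367 in hESC, 542, 474 and 469 in untreated NPC and 1815, 1649 and 2369 in treated NPC, a rise of 0.69 ± 0.15. It followed the same order with no overlap. Hexokinase 2, which traps glucose in the cell, had 219, 186 and 220.0 in hESC, 80.9, 102 and 135 in untreated NPC and 549, 424 and 667 in treated NPC. The rise of HK2 was 1.39 ± 0.19, again with groups that did not overlap.

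Further down the pathway, enolase ENO1 had 3454, 3064 and 3746 in hESC, 3151, 3798 and 3509.5 in untreated NPC and 7020.5, 7659 and 8665 in treated NPC. Untreated NPC overlapped hESC while every treated library was above both, a rise of 1.19 ± 0.12. LDHA, the lactate dehydrogenase subunit whose promoter is shown above, had 1825, 1601 and 2032 in hESC, 1325, 1636 and 1639 in untreated NPC and 2926, 3259.7 and 3754 in treated NPC. Its rise of 0.86 ± 0.13 separated the treated libraries from all others. PFKFB4 and PFKFB3, which make the activator of phosphofructokinase, had the largest rises of the list, 2.08 ± 0.19 and 1.92 ± 0.16, and the lactate exporter SLC16A3 rose by 1.77 ± 0.14. GAPDH, often taken as a stable reference, was 5031 ± 350.1 in hESC, 4327 ± 379 in untreated NPC and 8592 ± 1691 in treated NPC. ALDOC was the single member to reach the hESC level again (0.16 ± 0.18), a class it kept in 11 of 16 alternatives. PGAM1 also differed little (0.07 ± 0.10, not called). The fallers were SLC16A1, a lactate importer and exporter, with -1.41 ± 0.085, and LDHB with -0.34 ± 0.12, whose call was lost without hESC replicate 1 or 3 (edgeR adjusted p = 0.06403 and 0.05725).

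Hypoxia targets outside glycolysis rose in 24 of 25 cases, with 1 lower, and their median change was 2.279 in treated NPC and 0.579 in untreated NPC, in which 15 were higher and 3 lower. VEGFA, the vascular growth factor, stood at 79.9, 68.9 and 87.8 in hESC, 74.0, 106 and 126 in untreated NPC and 345, 333 and 507 in treated NPC. Treated libraries lay above both groups, a rise of 2.33 ± 0.21. NDRG1, a stress-induced gene, stood at 26.5, 16.8 and 33.5 in hESC, 31.1, 40.1 and 58.1 in untreated NPC and 308, 256 and 479.9 in treated NPC, a rise of 3.76 ± 0.32. The transcriptional repressor BHLHE40 had the largest rise of the list, from 8.85 ± 1.73 in hESC to 226 ± 52.8 in treated NPC (4.68 ± 0.20). DDIT4, an inhibitor of mTORC1, went from 88.6 ± 25.8 to 364 ± 84.2 in untreated NPC and 1197 ± 196 in treated NPC. The peptide hormone gene ADM, the prolyl hydroxylase gene EGLN1 and the mitochondrial protein gene FAM162A were in the exceeded class, with 1.09 ± 0.21, 1.24 ± 0.15 and 1.45 ± 0.19. Carbonic anhydrases diverged, CA9 rising by 3.38 ± 0.25 and CA12 changing by -0.98 ± 0.25. The summed level of the list was 1602 to 2165 in hESC, 2076 to 3280 in untreated NPC and 7027 to 10100 in treated NPC.

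**Figure D3:**
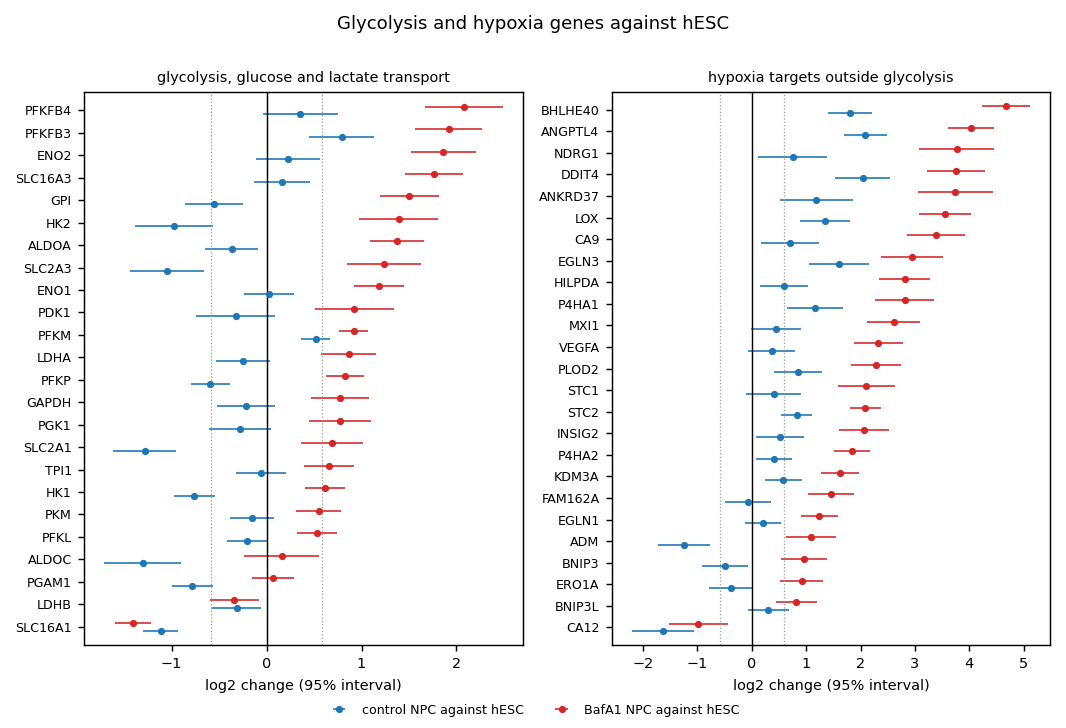
Log2 change against hESC with 95% interval for each gene of the glycolysis (left) and hypoxia (right) lists, in untreated NPC (blue) and treated NPC (red); dotted lines mark 1.5-fold. Most red points lie to the right of 0, up to 2.08 for PFKFB4 and 4.68 for BHLHE40, while blue points of the glycolysis list lie on both sides.

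Of the genes that reached the stem cell level again, the most abundant were described one by one. By hESC level, the first were GPC4, GARS1, AARS1, YARS1, SLC7A5, ARID3B, GPT2 and YBX3. GPC4, a cell surface heparan sulfate proteoglycan, stood at 554, 563 and 512 in hESC, 223, 189 and 189.5 in untreated NPC and 435, 407 and 454 in treated NPC. Treated libraries lay above untreated NPC and just under hESC, called lower (-0.33 ± 0.095). Alanyl-tRNA synthetase AARS1 (chr16:70252298-70289506 in GRCh38) had 309, 274 and 308 in hESC, 129, 126 and 143 in untreated NPC and 303, 268 and 365 in treated NPC. The treated libraries overlapped hESC and not untreated NPC, and the change against hESC was 0.07 ± 0.11 with a 95% interval of -0.18 to 0.32. Glycyl-tRNA synthetase GARS1 had 359, 333 and 354 in hESC, 176, 164 and 172 in untreated NPC and 305, 302 and 397 in treated NPC, a change of -0.059 ± 0.11. The amino acid exchanger SLC7A5 had 264, 238 and 253 in hESC, 133, 112 and 98.7 in untreated NPC and 342, 249.7 and 321 in treated NPC, a change of 0.27 ± 0.13 that was not called, except with the GC trend removed or without BafA1 replicate 2 (0.3666 and 0.3988, edgeR adjusted p = 0.01557 and 0.01235). Both had treated libraries above all untreated libraries and overlapping hESC. GPT2, the mitochondrial alanine transaminase, and YBX3, a nucleic acid binding protein, differed from hESC by -0.019 ± 0.13 and -0.032 ± 0.11. ARID3B, a DNA-binding factor, was called lower than hESC (-0.39 ± 0.089).

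Cytosolic aminoacyl-tRNA synthetases, a family set apart after these values were seen, were 3 higher and 10 lower of 20 in treated NPC, against 2 higher and 15 lower in untreated NPC, with medians of -0.206 and -0.597. Against untreated NPC, 11 of them were higher and 3 lower. Beside AARS1 and GARS1, YARS1 was placed in the reached again class, although it was called lower than hESC with every treated library below every hESC library (-0.34 ± 0.099) and kept that class in 11 of 16 alternatives, and MARS1 went part of the way (-1.05 ± 0.088). SARS1 was higher than hESC in both progenitor groups, with 155, 139 and 157 in hESC, 217, 221 and 244 in untreated NPC and 335, 413 and 475 in treated NPC. The 3 groups followed that order without overlap. IARS1 did not follow, at 426 in hESC, 194 in untreated NPC and 211 in treated NPC, nor did VARS1 at 152, 68.9 and 62.5.

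Of 25 genes of the ATF4 pathway and the unfolded protein response, 12 rose and 6 fell, while untreated NPC had 6 higher and 12 lower. Of these, 1 reached the hESC level again. ATF4, the factor itself, is controlled mainly by translation, and its mRNA stood at 586, 534 and 571 in hESC, 407, 434 and 438 in untreated NPC and 501, 655 and 775 in treated NPC. The change of 0.19 ± 0.13 against hESC was not called, except when BafA1 replicate 1 was left out (0.3376, edgeR adjusted p = 0.008788). DDIT3, or CHOP, a factor of prolonged stress, rose from 7.59, 6.70 and 9.65 in hESC through 19.4, 28.6 and 38.6 in untreated NPC to 74.7, 110.5 and 179 in treated NPC. No groups overlapped, and the rise was 3.93 ± 0.33. PPP1R15A, which restores translation, rose by 1.87 ± 0.17, HERPUD1 by 1.51 ± 0.17, and ATF5, in the exceeded class, by 1.49 ± 0.13. Asparagine synthetase ASNS and the mitochondrial folate enzymes MTHFD2 and SHMT2 rose by 0.86 ± 0.23, 0.53 ± 0.16 and 0.34 ± 0.10, and each was below hESC in untreated NPC. The serine synthesis enzymes PHGDH and PSAT1 had gone only part of the way, PHGDH from 229.5 ± 1.82 in untreated NPC to 391 ± 33.0 in treated NPC beside 641 ± 39.6 in hESC. The ER chaperone HSPA5 differed by 0.22 ± 0.18, not called, and SDF2L1 and CRELD2, also of the unfolded protein response, fell, changing by -0.90 ± 0.16 and -0.51 ± 0.15.

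**Figure D4:**
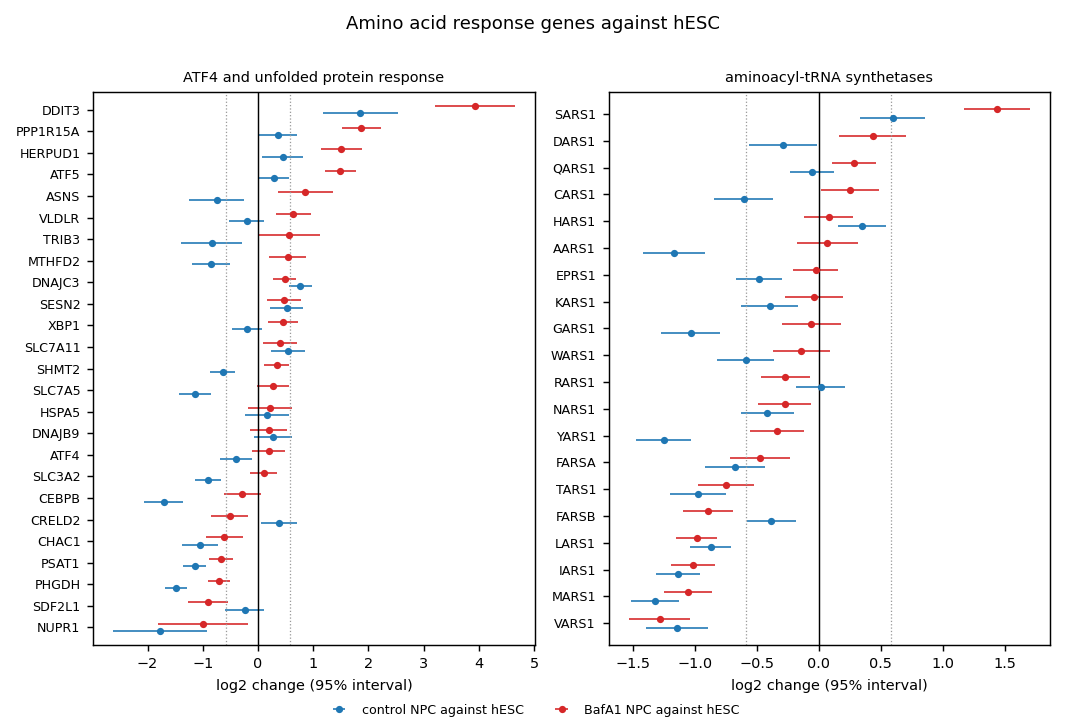
Log2 change against hESC with 95% interval for genes of the ATF4 pathway and unfolded protein response (left) and for cytosolic aminoacyl-tRNA synthetases (right), in untreated NPC (blue) and treated NPC (red); dotted lines mark 1.5-fold. AARS1 lies at -1.16 in untreated NPC and 0.07 in treated NPC, and DDIT3 at 3.93 in treated NPC.

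The growth factor response genes split. Of 12 genes of the MYC and MAX network, 3 rose and 6 fell, beside 35.5% and 34.8% of all genes. Untreated NPC had 3 higher and 5 lower. MYC, the growth-promoting factor abundant in hESC, stood at 75.9, 69.1 and 72.1 in hESC, 4.62, 5.71 and 7.02 in untreated NPC and 23.3, 28.8 and 28.6 in treated NPC. Treated libraries lay between the others without overlap, -1.43 ± 0.13 from hESC. MYCN, its neural relative, was 76.1 ± 5.07, 24.5 ± 2.83 and 28.7 ± 4.93 in hESC, untreated NPC and treated NPC. Their partner MAX was kept (0.10 ± 0.082), as were the antagonist MNT (called lower without BafA1 replicate 1, -0.276, edgeR adjusted p = 0.03964, and with limma on FPKM, adjusted p = 0.01415 and 0.01259) and the MAX-like factor MLX. The antagonist MXD1 rose by 2.79 ± 0.26.

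Of 19 immediate early genes, 14 rose and 1 fell, against 8 and 7 in untreated NPC, with medians of 1.49 and 0.3. JUN, a subunit of AP-1, had 27.5, 18.6 and 29.4 in hESC, 18.1, 15.5 and 16.3 in untreated NPC and 75.9, 107 and 164 in treated NPC. All treated libraries were above the other groups, though they differed among themselves, and the rise was 2.20 ± 0.24. CCN1 and CCN2, matricellular proteins, rose by 3.54 ± 0.14 and 3.69 ± 0.097, and JUND and IER3 exceeded hESC by 1.15 ± 0.17 and 1.15 ± 0.14. FOS, the other AP-1 subunit, reached the stem cell level again, a class it kept in 10 of 16 alternatives. FOS had 7.57, 6.90 and 6.14 in hESC, 2.56, 3.02 and 2.73 in untreated NPC and 5.30, 5.14 and 9.04 in treated NPC. ZFP36, which destabilises mRNAs, reached the hESC level again too (0.073 ± 0.15). IER2 was the faller, at 129.5 in hESC, 24.0 in untreated NPC and 33.8 in treated NPC.

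Of the 8 genes most above hESC in the exceeded class, EFNA1, an ephrin ligand, led with 1.83, 1.62 and 2.17 in hESC, 1.87, 1.74 and 1.74 in untreated NPC and 9.69, 7.87 and 11.8 in treated NPC (2.39 ± 0.19). Its untreated libraries overlapped hESC and its treated libraries did not. MT1X, JUN and ENO2 were among the 8, and the others were the vesicle GTPase RAB3A (2.31 ± 0.18), TMEM130 (2.19 ± 0.18), the growth factor PDGFB (2.04 ± 0.20) and the postsynaptic scaffold DLG4 (1.82 ± 0.11).

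Metallothioneins, small proteins that bind zinc and copper, did not move together. Of 9 genes of metal handling tested, 5 rose and 3 fell, against 2 and 4 in untreated NPC. MT1X (chr16:56682470-56684196 in GRCh38) had 16.5, 13.8 and 18.2 in hESC, 11.7, 10.2 and 9.96 in untreated NPC and 84.4, 67.3 and 101 in treated NPC. Treated libraries were above and untreated libraries below hESC, a rise of 2.38 ± 0.15. MT2A had 3.58, 2.67 and 4.40 in hESC, 10.4, 8.21 and 4.93 in untreated NPC and 54.1, 36.6 and 54.0 in treated NPC, a rise of 3.76 ± 0.27. MT1F and MT1G went part of the way from below, MT1G with 2.80 in hESC, 0 in untreated NPC and 0.370 in treated NPC. Their sensor MTF1 was kept (-0.068 ± 0.10). Metallothionein genes are near-identical copies, so their single values are uncertain where reads were split between them.

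Among 14 iron genes, 5 rose and 4 fell, shares near those of all genes (35.5% and 34.8%). Untreated NPC had 4 higher and 6 lower. The transferrin receptor TFRC, which brings iron into endosomes, had 198, 206 and 221 in hESC, 156, 182 and 164 in untreated NPC and 106, 92.8 and 109.9 in treated NPC. Its treated libraries were below all others, -1.02 ± 0.094 from hESC. The ferritin subunits FTH1 and FTL rose by 0.37 ± 0.12 and 0.54 ± 0.14. The iron sensor IREB2 (-0.092 ± 0.087, called lower with the GC trend removed, edgeR adjusted p = 0.0169) and the importer SLC11A2 (-0.033 ± 0.07) were kept. HMOX1, heme oxygenase, stood at 33.2, 29.7 and 29.01 in hESC, 12.2, 8.25 and 5.58 in untreated NPC and 38.7, 18.4 and 27.4 in treated NPC. Its treated libraries overlapped hESC, but their spread kept the interval wider than 1.5-fold (-0.70 to 0.46).

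Cholesterol genes were lower than in stem cells in both progenitor groups. Of 25 genes for synthesis and uptake, 23 fell and 1 rose in treated NPC, and 23 were lower and 2 higher in untreated NPC, with medians of -1.612 and -1.135. HMGCS1, which makes HMG-CoA at the start of the pathway, had 731, 726 and 781 in hESC, 264, 328 and 426 in untreated NPC and 91.2, 99.2 and 98.0 in treated NPC. The groups descended without overlap, to -2.96 ± 0.15. ACAT2 and IDI1 fell, changing by -2.70 ± 0.11 and -2.34 ± 0.13, each further than in untreated NPC. SREBF2, the factor that drives the pathway, was 475 ± 18.9 in hESC, 189 ± 17.2 in untreated NPC and 212 ± 16.0 in treated NPC. The member that rose was PMVK (0.44 ± 0.12).

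**Figure D5:**
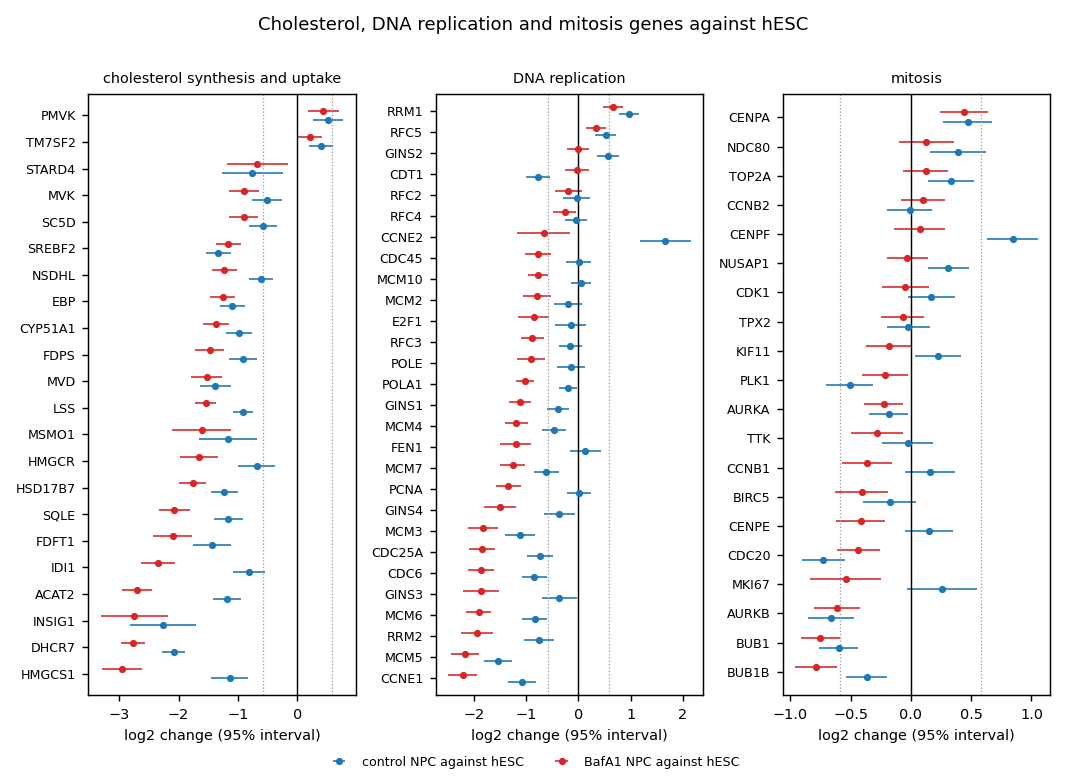
Log2 change against hESC with 95% interval for genes of cholesterol synthesis and uptake (left, with some members not shown), DNA replication (middle) and mitosis (right), in untreated NPC (blue) and treated NPC (red); dotted lines mark 1.5-fold, and the 3 axes have different ranges. PCNA lies at 0.013 in untreated NPC and -1.34 in treated NPC. Of 20 mitosis genes, 12 lie within 1.5-fold of hESC in treated NPC, beside 23.6% of genes with at least 1 CPM.

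Genes of DNA replication fell in 23 of 28 cases, with 2 higher, and untreated NPC had 13 lower and 4 higher. PCNA, the sliding clamp of DNA polymerase, had 275, 276 and 266 in hESC, 295, 274 and 254 in untreated NPC and 97.3, 126 and 98.8 in treated NPC. Untreated libraries overlapped hESC and treated libraries lay below both, -1.34 ± 0.11 from hESC (edgeR adjusted p = 4.4e-07). The flap nuclease FEN1 and the polymerase subunit POLA1 were also in the class that fell below, with -1.20 ± 0.14 and -1.02 ± 0.079. The helicase subunits MCM2 to MCM7 all fell, from -0.80 for MCM2 to -2.17 for MCM5, and cyclin E1 CCNE1 fell by 2.22 ± 0.13. RRM1, a ribonucleotide reductase subunit, rose by 0.66 ± 0.087, whereas its partner RRM2 fell by 1.95 ± 0.14. The licensing factor CDT1 stood at 92.7, 78.4 and 79.1 in hESC, 51.4, 50.0 and 45.3 in untreated NPC and 77.3, 93.9 and 75.7 in treated NPC. Treated libraries overlapped hESC and were above untreated NPC.

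Mitosis genes stayed closer to hESC. Of 20, 1 rose and 11 fell (6 and 6 in untreated NPC). However, 12 were within 1.5-fold of hESC and 9 were kept, beside 23.6% and 15.4% of genes with at least 1 CPM. Many of the calls were therefore small. Cyclin B1 CCNB1 had 265, 273 and 267 in hESC, 305, 297 and 296 in untreated NPC and 186, 238 and 202 in treated NPC, a change of -0.36 ± 0.095. The kinase CDK1 (-0.048 ± 0.089), topoisomerase TOP2A (0.12 ± 0.087) and spindle factor TPX2 (-0.068 ± 0.082) were kept and not called, although CDK1 was called lower with the GC trend removed (-0.2045, edgeR adjusted p = 0.03692). MKI67, the marker of dividing cells, was 308 ± 4.86 in hESC, 369 ± 11.8 in untreated NPC and 212 ± 49.6 in treated NPC.

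Among the 8 genes furthest under hESC in the class that fell below, FAM111B, a protease gene, had 35.5, 36.1 and 33.8 in hESC, 49.1, 44.0 and 41.3 in untreated NPC and 12.9, 11.7 and 8.38 in treated NPC (-1.68 ± 0.14). RBM12, an RNA-binding protein, was 209 ± 8.14, 166 ± 11.1 and 66.1 ± 7.77 in the same groups (-1.66 ± 0.10). LCMT2, NCOA5, GPRIN1 and B3GNT10 changed by -1.66 ± 0.20, -1.64 ± 0.18, -1.64 ± 0.17 and -1.64 ± 0.17, with untreated NPC near hESC in each. ESCO2, which acetylates cohesin, and EBF2, a developmental factor, completed the 8, with -1.88 ± 0.15 and -1.74 ± 0.30.

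Many genes of the compartment that BafA1 acts on were above the stem cell level in both progenitor groups. Of 31 genes of lysosomal hydrolases, membrane proteins and their regulators, 20 rose and 5 fell (17 and 6 in untreated NPC), with medians of 0.653 in treated NPC and 0.345 in untreated NPC. Cathepsin B, CTSB, had 37.6, 37.1 and 39.9 in hESC, 227, 184 and 170.1 in untreated NPC and 233, 242 and 262 in treated NPC. Both progenitor groups were far above hESC, treated NPC by 2.69 ± 0.11. SCARB2, HEXA and IDS rose by 1.57 ± 0.087, 1.52 ± 0.084 and 1.499 ± 0.12. LAMP1 (-0.19 ± 0.12) and the cholesterol exporter NPC1 (0.014 ± 0.072) were kept. Of 17 V-ATPase subunits, the target of the drug, 12 rose and 1 fell, beside 35.5% and 34.8% of all genes. Of these subunits, 4 were kept, beside 15.4% of genes with at least 1 CPM. Untreated NPC had 11 higher and 1 lower, the medians were 0.508 and 0.565 in treated and untreated NPC, and the median between these groups was -0.004. ATP6V1H rose by 1.15 ± 0.081 and ATP6AP1 by 1.22 ± 0.087. The faller was ATP6V0A2, with 46.8, 49.9 and 44.8 in hESC, 28.4, 28.3 and 25.2 in untreated NPC and 13.5, 13.3 and 12.1 in treated NPC. Its groups descended without overlap, to -1.87 ± 0.091.

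Autophagy genes were 14 higher and 13 lower of 35, shares near those of all genes (35.5% and 34.8%), with a median of -0.078. Untreated NPC had 11 higher and 14 lower, with a median of 0. The receptor OPTN rose most, with 8.48, 6.81 and 10.2 in hESC, 34.7, 30.4 and 38.5 in untreated NPC and 70.8, 72.5 and 74.9 in treated NPC (3.10 ± 0.14). GABARAP and MAP1LC3B, which coat autophagosomes, rose by 1.37 ± 0.11 and 0.52 ± 0.094, while SQSTM1, the cargo receptor p62, fell by 0.40 ± 0.12. The initiating kinase ULK1 fell by 1.57 ± 0.12 and ULK2 rose by 1.29 ± 0.085. ATG7 (-0.016 ± 0.095), PIK3C3 (-0.057 ± 0.089) and ATG14 (-0.087 ± 0.11) were kept. None of these values measures autophagic flux, which is set by protein turnover.

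WNT signalling through the DVL proteins is named in the title of the study. Of 22 receptors, DVL genes and members of the destruction complex, 9 rose and 5 fell, beside 35.5% and 34.8% of all genes. Untreated NPC had 10 higher and 6 lower. DVL1 had 57.2, 56.0 and 54.0 in hESC, 43.8, 40.3 and 40.2 in untreated NPC and 53.8, 59.1 and 64.1 in treated NPC, a change of 0.082 ± 0.084 against hESC with a 95% interval of -0.10 to 0.26, not called. The treated libraries overlapped hESC and were above untreated NPC, and after removal of the GC trend DVL1 was called higher than hESC (0.1854, edgeR adjusted p = 0.04219). DVL2 had 60.3, 55.7 and 61.1 in hESC, 91.3, 89.8 and 90.6 in untreated NPC and 107, 113 and 116 in treated NPC, a rise of 0.92 ± 0.075. DVL3 was kept within 1.5-fold, yet called higher by 0.32 ± 0.074. CTNNB1, beta-catenin, stood at 572, 567 and 579 in hESC, 782, 799.7 and 699.9 in untreated NPC and 532, 567 and 534 in treated NPC. Its treated libraries overlapped hESC and lay below untreated NPC, a change of -0.073 ± 0.086. The co-receptors LRP5 and LRP6 and the kinase GSK3A were kept. The receptors diverged, FZD1 rising by 2.87 ± 0.16 and FZD5 changing by -2.59 ± 0.12. WLS, which carries WNT ligands to the surface, rose from 0.915 ± 0.139 in hESC to 343 ± 21.3 in untreated NPC and 621 ± 59.4 in treated NPC.

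Of 18 WNT target and feedback genes, 12 rose and 5 fell, with a median of 3.686, beside 13 higher, 5 lower and 3.693 in untreated NPC. AXIN2, a general feedback target, had 27.0, 26.5 and 22.9 in hESC, 179, 150.0 and 134 in untreated NPC and 146, 153 and 151 in treated NPC (2.56 ± 0.11). LEF1 and MSX1 rose by 7.85 ± 0.25 and 8.12 ± 0.32. RNF43, which removes WNT receptors, was placed in the reached again class, with 3.01, 2.87 and 2.90 in hESC, 7.20, 5.96 and 4.63 in untreated NPC and 2.97, 2.51 and 2.58 in treated NPC (-0.12 ± 0.19), a class it kept in 7 of 16 alternatives and lost without any 1 hESC library. TCF7L1, a repressor active in hESC, went part of the way, from 66.5 ± 1.49 in untreated NPC to 107 ± 12.1 in treated NPC beside 206 ± 7.36 in hESC. Of 17 NODAL, BMP and TGF-beta genes, 7 rose and 7 fell, beside 35.5% and 34.8% of all genes. Untreated NPC had 8 higher and 7 lower. SMAD7, an inhibitor of these receptors, went part of the way, with 37.3 in hESC, 8.85 in untreated NPC and 24.0 in treated NPC, and TGFB2 rose by 6.68 ± 0.18.

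Most neural progenitor genes were above hESC with BafA1, as in untreated NPC. Of 24 neural progenitor genes, 20 rose and 2 fell against hESC (21 and 2 in untreated NPC), with a median of 6.016, or 4.973 with the 5 genes at 0 in hESC at their bound. NR2F1, a nuclear receptor of neural progenitors, was at 0 in all hESC libraries and at 167, 167 and 141 in untreated NPC and 97.8, 126 and 106 in treated NPC, at least 2166-fold above the hESC floor. It was the largest fitted rise under the symbol rule above, among genes with at least 5 CPM in treated NPC whose groups did not overlap. SOX1 rose from 0.0236 ± 0.0205 in hESC to 23.9 ± 5.52 in untreated NPC and 15.0 ± 3.13 in treated NPC, and N-cadherin CDH2 rose by 4.01 ± 0.13. Of the 24 genes, 6 went part of the way from untreated NPC toward hESC, beside 6.36% of genes with at least 1 CPM. They were NR2F1, SOX1, MEIS1, MEIS2, POU3F2 and ZIC1. SOX1 held that class in 12 of 16 alternatives and MEIS2 in 9. Against untreated NPC, 9 of the 24 were higher and 7 lower. SOX9 and NOTCH1 fell, changing by -0.86 ± 0.15 and -0.32 ± 0.091 (NOTCH1 not with the GC trend removed, edgeR adjusted p = 0.0519), and SOX3 differed by -0.29 ± 0.19, not called.

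Of 23 floor plate and dopaminergic lineage genes, 18 rose and 4 fell (17 and 4 in untreated NPC), with a median of 7.181, or 5.889 with 7 genes at their bound. LMX1A had 0.1997, 0.129 and 0 in hESC, 68.2, 66.1 and 97.7 in untreated NPC and 102, 67.1 and 54.5 in treated NPC. Treated and untreated libraries overlapped, far above hESC (9.35 ± 0.44). FOXA2 had 64.1, 64.7 and 57.9 in hESC, 89.0, 102 and 113 in untreated NPC and 167, 164 and 157 in treated NPC, a rise of 1.39 ± 0.097 from a level that was already measurable in hESC. OTX2 rose by 1.08 ± 0.24 and SHH by 6.85 ± 0.34. FOXA1, at 0 in hESC, was at least 680.5-fold higher. Of the 23 genes, 2 went part of the way from untreated NPC toward hESC, FOXA1 and LMX1B. Against untreated NPC, 5 of the 23 were higher and 2 lower. Genes of mature dopaminergic cells were low: TH was 0.632 in treated NPC and 0 in hESC, and NR4A2 and SLC18A2 fell, changing by -2.39 ± 0.31 and -2.21 ± 0.34. Other large rises, all from 0 in hESC, were A2M, a protease inhibitor (at least 1712-fold), GASK1B (at least 1089.9-fold), the midline factor SIM2 (at least 639-fold), the thyroid hormone carrier TTR (at least 382-fold) and the retinoic acid receptor RARB (at least 356-fold).

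Of 23 neuronal genes, 15 rose and 5 fell, against 16 and 3 in untreated NPC. MAP2 had 20.0, 19.5 and 17.8 in hESC, 268, 291 and 282 in untreated NPC and 296, 271 and 278 in treated NPC. Treated and untreated libraries overlapped above hESC (3.88 ± 0.092). STMN1, abundant in dividing cells, was kept (-0.23 ± 0.12), a class it held in 8 of 16 alternatives, and was called lower in 5, with DESeq2 (adjusted p = 0.03067), with limma on FPKM at either pseudocount (adjusted p = 0.01859 and 0.0192), with the GC trend removed (edgeR adjusted p = 0.01823) and without BafA1 replicate 2 (edgeR adjusted p = 0.01828). SCG3 and RBFOX3 were more abundant in hESC, changing by -3.69 ± 0.11 and -5.11 ± 0.27.

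Markers of other lineages were measured beside the neural ones. Mesoderm and mesenchyme markers rose in 14 of 17 cases and fell in 2, and their summed level was 213.2 to 229.5 in hESC, 2138 to 3487 in untreated NPC and 4049 to 4498 in treated NPC. The mesoderm genes TBXT, EOMES, HAND1 and HAND2 did not pass the filter on low counts, whereas MIXL1, MESP1 and TBX6 of the same list did. The collagen COL1A1 had 70.5, 68.1 and 72.2 in hESC, 1588, 1177 and 868 in untreated NPC and 1939, 1847 and 2104 in treated NPC. Of 11 neural crest markers, 3 rose and 5 fell, with SOX10 at 0.0983 in treated NPC and a summed level of 259.7 to 277.1 in hESC, 177.7 to 182.8 in untreated NPC and 180.8 to 222 in treated NPC. Of 8 endoderm markers, 4 rose and 4 fell, SOX17, GATA4 and HNF4A did not pass the filter, and the sum of 32.2 to 33.69 in hESC, 77.3 to 142.5 in untreated NPC and 212.6 to 284.2 in treated NPC was mostly CXCR4 (218 in treated NPC). Of 9 trophoblast and amnion markers, 4 rose and 3 fell, with sums of 21.28 to 23.02, 18.78 to 24.49 and 125.7 to 238.3 in the 3 groups, the last mostly IGFBP3 (162). The part of such cells in the changes above was not tested.

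Targets of p53 rose in 15 of 19 cases and fell in 0, and untreated NPC had 17 higher and 1 lower. The medians were 1.549 in treated NPC and 0.899 in untreated NPC. The cell cycle inhibitor CDKN1A had 6.12, 6.44 and 8.85 in hESC, 140.1, 114 and 103 in untreated NPC and 115, 135 and 164 in treated NPC. Both progenitor groups were far above hESC (4.27 ± 0.19) and overlapped each other. GDF15, a stress hormone, rose by 4.16 ± 0.29, while MDM2, the negative regulator of p53, differed by 0.24 ± 0.13, not called except without BafA1 replicate 2 (0.3406, edgeR adjusted p = 0.04962).

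Mitochondrially encoded mRNAs fell in 13 of 13 cases (8 in untreated NPC), with medians of -0.927 in treated NPC and -0.372 in untreated NPC, in the libraries whose mitochondrial share is given above. COX1, a subunit of cytochrome oxidase, had 12129, 13505 and 11530.0 in hESC, 6749.9, 6692 and 6688 in untreated NPC and 5671, 6050.0 and 5856 in treated NPC. Its treated libraries were the lowest, -1.08 ± 0.097 from hESC. ATP6 and ATP8, which overlap in the genome and share reads, fell, changing by -1.81 ± 0.14 and -1.98 ± 0.15, and ND4 fell by 0.29 ± 0.10, a call lost without hESC replicate 1 or 2 (edgeR adjusted p = 0.05693 and 0.1269) and with limma on FPKM (adjusted p = 0.06174 and 0.06588). The ribosomal RNAs of the same genome were among the most abundant genes that went part of the way: RNR2 was 6206 ± 516 in hESC, 2705 ± 420.4 in untreated NPC and 3787 ± 408 in treated NPC, and RNR1 was 1188 ± 135, 281 ± 42.0 and 616 ± 28.6. The 13 mRNAs of that genome moved the other way against untreated NPC, with 0 higher and 9 lower. The libraries were prepared from mRNA, and the part of that preparation in the ribosomal RNA levels was not tested. TKT, transketolase of the pentose phosphate pathway, had 1328, 1196 and 1318 in hESC, 369, 334 and 316 in untreated NPC and 437, 553 and 595 in treated NPC and also went part of the way.

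Of the genes reached again, 31 were above hESC in untreated NPC. AP5M1, a subunit of an adaptor complex of late endosomes, had 45.3, 51.6 and 49.7 in hESC, 117, 109 and 113 in untreated NPC and 62.4, 33.9 and 42.8 in treated NPC. DCHS1, a protocadherin, had 26.5, 29.5 and 26.3 in hESC, 81.2, 74.5 and 71.2 in untreated NPC and 37.5, 25.2 and 25.9 in treated NPC, a change of 0.11 ± 0.14 against hESC. In both, the untreated libraries were above all others, and treated libraries overlapped hESC. These examples and RNF43 were chosen after their values were seen, as were BAZ1A (0.19 ± 0.096) and EPM2AIP1 (0.17 ± 0.13).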

How the data were processed

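RNA of 9 libraries was sequenced after a stranded mRNA preparation, per the labels' protocols. Trimmomatic and the build GRCh38 come from the submitters' processing notes, while the aligner and counting tool were not given in the sources used here. Read counts (whole numbers without normalisation) were deposited by the authors in 1 table, and FPKM values per gene in a table per group, per the file headers. Columns were matched to samples by name.

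Of 46427 genes, 20685 passed filterByExpr and were fitted with edgeR 4.0.16 (R 4.3.3) over all 9 libraries, with TMM scaling, 1 term per group and two-sided quasi-likelihood tests, adjusted by Benjamini-Hochberg. The script was checked on simulated counts. Intervals are 95% intervals from the estimate, its SE and a t quantile. Changes are log2 values computed here from the deposited counts. The FPKM files served as a check: on the log2(FPKM + 1) scale 12674 of 12698 called genes with at least 1 CPM had the same sign (99.8%). Promoters and coordinates are from RefSeq, GRCh38.p14.

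Members, the 30 gene lists and the tests were chosen with earlier results of these data known, and the synthetase, SR, chaperone and antigen presentation families after their values were seen. Named genes were the 8 largest rises and falls whose groups did not overlap, from 5 CPM upward in the higher one, the leading genes of each class, and of each list up to 5 with the smallest adjusted p and 3 with the smallest change, plus key markers; other list members are named as examples. The values of a few genes are not reported here, although list counts and medians include them. Alternatives were DESeq2 1.42.0, library size scaling, no filter, 6 libraries only, limma 3.58.1 on FPKM, a replicate block, GC correction, other class widths and leaving out each library. Replicates of a group differed by more than counting noise (chi-square per degree of freedom 10.6 to 69.1).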

Additional observations from a re-analysis of the deposited data

How the results depend on the processing

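Counts of genes called higher and lower than hESC stayed within 1.5 times of 7353 and 7204 in each alternative, and no named gene reversed. Leaving out 1 library gave 6816 to 7466 higher and 6694 to 7473 lower. Of the named genes, 32 changed their call in 1 or more alternatives, 14 losing it and 18 gaining it. The classes depended more on the settings. Leaving out 1 library gave 48 to 105 genes reached again (82 with all libraries; 51 without hESC replicate 1 and 48 without hESC replicate 3), 84 to 157 that exceeded and 91 to 174 that fell below. With library size alone 198 genes fell below. With limma on log2(FPKM + 1), which shrinks the changes of low genes, 1641 and 1936 genes were at least 2-fold higher and lower, against 4195 and 3877 on counts, 4779 were kept, 665 went part of the way and 66 exceeded. On log2(FPKM + 0.1), 70 exceeded and 212 fell below. A width of 2-fold gave 6963 kept, 396 reached again, 449 exceeded and 471 fallen below, and a width of 5 to 4 gave 321, 8, 35 and 28. With the GC trend removed, possible for 17488 genes, 52.4% of the genes reached again, 55.5% of those that exceeded and 54.3% of those fallen below stayed in their class. Of 16 alternatives, the class held in 16 for AARS1, ENO1, SLC2A3, MT1X and PCNA, in 12 for SLC7A5, 8 for ENO2, 6 for JUN and 2 for ARID3B and HMGA1. The cause of these shifts was not tested. Deviations of same-numbered libraries of different groups correlated at r -0.055 to 0.088, and those of other pairs at -0.057 to 0.05. No clear pairing by number was seen. With 3 libraries per group these values cannot exclude a shared culture or batch, which the labels do not give. With the replicate block 7197 genes were higher, 7098 lower and 85 reached again. At these depths 3 counts correspond to at most 0.0731 CPM, and levels below that cannot be told from 0.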

Other observations

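Families outside the gene lists, picked after their values were seen and given as a description, stood below the stem cell level. Of 12 SR splicing factors, which select exons, 9 fell and 2 rose against hESC, with a median change of -0.604, beside -0.099 in untreated NPC. SRSF3 had 445, 479 and 448 in hESC, 449, 451 and 395 in untreated NPC and 191, 194 and 204 in treated NPC (-1.22 ± 0.088). Its treated libraries were below all others, and SRSF6 and SRSF7 were placed in the same class, with -1.17 ± 0.094 and -1.30 ± 0.094. SRSF2 fell further (-2.02 ± 0.11), from a level already lower in untreated NPC. SRSF12 and SRSF4 were the members that rose. Of 19 cytosolic heat shock chaperones tested, 17 fell and 1 rose, with medians of -1.166 in treated and -0.304 in untreated NPC. HSP90AA1, the stress-inducible HSP90, had 2009, 1999 and 1958 in hESC, 1719, 1596 and 1518 in untreated NPC and 736, 841 and 830.4 in treated NPC (-1.31 ± 0.095). The groups descended without overlap. The nucleotide exchange factor HSPH1 (-1.34 ± 0.12) and the co-chaperone DNAJA1 (-1.20 ± 0.12) fell below hESC as well, and HSPA4L rose (2.18 ± 0.15). HSPA1A and HSPA1B, near-identical copies whose single values are uncertain, completed the 5 chaperones of that class.

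Of 13 genes of class I antigen presentation, which displays peptides to T cells, 4 rose and 7 fell, beside 35.5% and 34.8% of all genes. Untreated NPC had 1 higher and 10 lower. HLA-E had 45.4, 39.3 and 46.0 in hESC, 53.2, 48.7 and 48.0 in untreated NPC and 81.2, 94.96 and 90.1 in treated NPC (1.03 ± 0.092), and HLA-B changed by 1.27 ± 0.15. Both were in the exceeded class, and reads of HLA genes can be split between similar copies. B2M, the shared light chain, was 52.8 ± 2.17 in hESC, 150.4 ± 8.17 in untreated NPC and 136 ± 21.2 in treated NPC. PSMB8, a subunit of the immunoproteasome, moved the other way, at 14.8, 0.722 and 1.37.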
